A study of Zea mays with 9 samples.

Results

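The genes sut1, incw1, frk1, frk2 and phi1 carry sugar from its arrival in the maize endosperm to the pool of hexose phosphates, and their RNA was measured in 3 inbred lines. They were taken by name, through the platform's gene identifiers and the RefSeq synonyms. All 5 were found, each with 1 probe set, among 1108 genes with a platform symbol. The tissue was endosperm, which fills the kernel with starch, taken 15 days after pollination from field-grown plants. Total RNA of 9 samples was hybridised to 9 Affymetrix arrays, where a probe set condenses several short probes into 1 linear intensity, called signal here. The groups were the ae wx line (3 arrays), after the starch loci amylose extender and waxy, the sh1 line (3 arrays), after the sucrose synthase locus shrunken1, and B73 (3 arrays), the inbred line of the maize reference genome. The labels call the replicates biological and the lines inbred, but name no allele, no pooling of ears and no relation of ae wx or sh1 to B73, so a locus and the rest of a line's genome cannot be told apart.

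Sucrose arrives at the kernel through the phloem. Cell wall invertases split it outside the cells into glucose and fructose, sucrose transporters carry it intact across the plasma membrane, and sucrose synthase cleaves it inside the cell into UDP-glucose and fructose. Fructokinases phosphorylate the fructose, and glucose phosphate isomerase interconverts fructose 6-phosphate and glucose 6-phosphate, which feed both starch synthesis and glycolysis.

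Median signal per array lay between 241.2 and 256. Every difference below is on the scale log2(signal + 16), which understates the change of dim genes. On it, replicates of a typical probe set had an SD (median) of 0.07 in ae wx, 0.08 in sh1 and 0.18 in B73. Differences are of line means, with standard errors (SE) and adjusted p-values from limma fitted over 12414 probe sets, and a gene was called at an adjusted p under 0.05. The sh1 gene had a mean signal of 1831.5 in the line named for it, against 17471 in B73, and wx1 had 4738 in ae wx, against 14314 in B73. Of 11 starchy endosperm markers, all were above controls with no maize target on every array. Their summed signal was 118800 to 126280 in ae wx, 121230 to 123810 in sh1 and 132760 to 139470 in B73. The markers include wx1 and ae1, of the loci that name ae wx, so the ae wx sum takes in the low wx1 signal given above. Of the 11, 5 were called higher and 5 lower in ae wx, and 1 higher and 4 lower in sh1, than in B73. Summed signal of 7 transfer cell markers, of the layer facing maternal tissue and with mn1 among them, was 2031 to 5133 in ae wx, 2575 to 4392 in sh1 and 1216 to 1358 in B73. Summed signal of 7 aleurone and embryo markers was 9027 to 9677 in ae wx, 10535 to 12263 in sh1 and 12457 to 16722 in B73. In both comparisons with B73, 5 of the 7 transfer cell markers were called higher and 0 lower. Only 4 of those 7 were above controls with no maize target on every array. Of the 6 aleurone and embryo markers that passed the filter on dim probe sets, 0 were higher, while 5 were lower in ae wx and 3 in sh1. Of all tested probe sets, 29% were higher and 24.3% lower in ae wx, and 30.4% higher and 25.4% lower in sh1. No marker was at 0. The log2 ratio of 3′ to 5′ actin signal, which tracks RNA integrity, was 0.57 in ae wx, 0.60 in sh1 and 0.17 in B73. The other 3 such ratios did not share one direction: against B73, cyclophilin differed by −0.34 in ae wx and −0.39 in sh1, GAPDH by 0.09 and 0.58, and the elongation factor by 0.36 and 0.14. The part of these markers and ratios in the differences below was not tested. In tissue RNA, fewer cells of a type and less RNA per cell cannot be told apart.

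Both fructokinase genes and sut1 were higher in both ae wx and sh1 than in B73, as were 19.9% of all tested probe sets. The gene phi1 was lower in both (15.4% of probe sets), and incw1 was lower in sh1. Against B73, ae wx had 3 of the 5 genes higher and 1 lower, beside 29% and 24.3% of tested probe sets. In sh1, 3 were higher and 2 lower than in B73, beside 30.4% and 25.4% of probe sets. Between ae wx and sh1, 1 gene was higher in ae wx (17.8% of probe sets), 1 was lower (18.8%) and 3 were not called. The median difference of the 5 genes was 0.29 in ae wx against B73, with 0.04 for all probe sets tested, 0.53 in sh1 against B73, with 0.04 for all, and −0.03 in ae wx against sh1, with 0.00358 for all. All 5 genes differed among the 3 lines by limma's F test (adjusted p from 7.14e-05 for frk1 to 0.00995 for incw1), as did 69.1% of all probe sets. With so many probe sets called, the counts do not set these genes apart from the rest of the array. Arrays of the lines compared did not overlap for 4 of the 5 genes in ae wx against B73 (60.1% of probe sets), 5 in sh1 against B73 (60.9%) and 3 in ae wx against sh1 (62.6%). The comparisons with B73 share its 3 arrays.

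**Figure D1:**
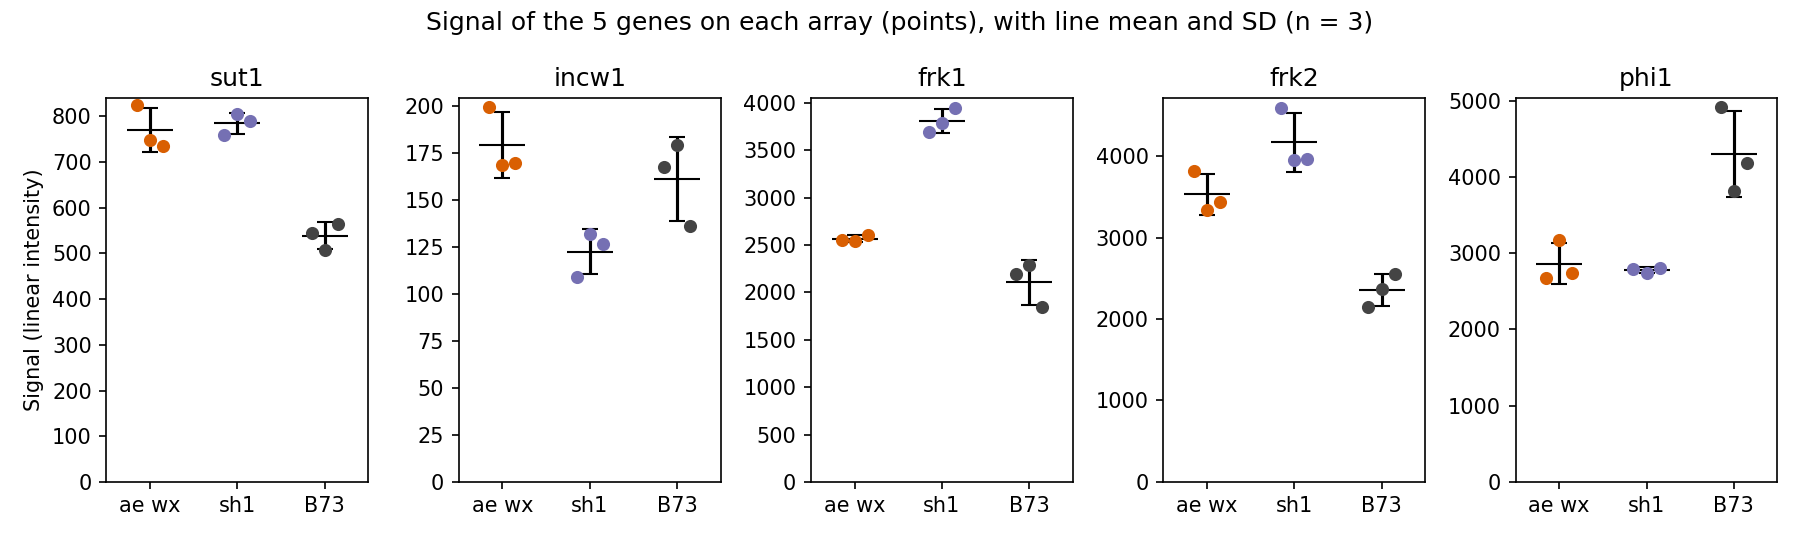
Signal (linear intensity) of sut1, incw1, frk1, frk2 and phi1 on each of the 9 arrays (points) in ae wx, sh1 and B73, with the line mean and SD (n = 3). The ae wx and sh1 points of sut1, frk1 and frk2 lie above all B73 points, those of phi1 lie below all B73 points, and those of incw1 are lowest in sh1.

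The sucrose transporter gene sut1 encodes a proton-coupled carrier of intact sucrose. Its probe set has the suffix that the array maker gives where probes match more than 1 transcript, so close relatives could add to its signal. Its signal was 824, 749 and 735 in ae wx, 759.6, 805 and 790.3 in sh1, and 544, 507 and 565 in B73. Every array of either ae wx or sh1 was above every B73 array, while the ae wx and sh1 arrays overlapped. Means were 769.5 ± 48.1 in ae wx, 785 ± 23.1 in sh1 and 539 ± 29.3 in B73 (SD, n = 3). The difference from B73 was 0.50 ± 0.09 (SE, log2, adjusted p = 0.00087) in ae wx and 0.53 ± 0.09 (adjusted p = 0.000581) in sh1. Between ae wx and sh1 it was −0.03, with a 95% interval of −0.22 to 0.16 (adjusted p = 0.824).

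The cell wall invertase gene incw1 was the dimmest of the 5. Its signals were 199.5, 169 and 169 in ae wx, 109, 132 and 127 in sh1, and 168, 179 and 136 in B73. The sh1 arrays were below all others, and ae wx overlapped B73. All 9 values exceeded the 95th percentile of 23 controls with no maize target on their array, but none of the sh1 values exceeded the brightest of those controls, against 3 of 3 in ae wx and 2 of 3 in B73. The gene passed the filter on dim probe sets through the ae wx and B73 arrays, since none of the sh1 arrays reached the filter's floor. Its mean was 122 ± 11.9 in sh1 and 161 ± 22.3 in B73 (SD, n = 3), a difference of −0.35 ± 0.12 (SE, log2, adjusted p = 0.028). The adjusted p was above the threshold when B73 replicate 1 (0.0763) or 2 (0.0937) or sh1 replicate 1 (0.0953) or 3 (0.0535) was left out, with values from −0.45 to −0.27 when single arrays were left out.

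In ae wx the mean of incw1 was 179 ± 17.7, against 161 ± 22.3 in B73 (0.15, 95% interval −0.11 to 0.41, adjusted p = 0.315). Set directly against sh1, ae wx was higher by 0.495 ± 0.12 (SE, log2, adjusted p = 0.00802), and this call held without any 1 array (adjusted p of at most 0.0356). With the control scalings described below it was not called (0.23, adjusted p = 0.166, and 0.24, adjusted p = 0.0957). The gene mn1, also called incw2, encodes the cell wall invertase of the endosperm base and is named for the miniature kernels of its mutants. It had signals of 257, 205 and 202 in ae wx, 209.8, 207 and 211 in sh1, and 219.7, 219 and 236 in B73. Its differences were −0.03 in ae wx against B73 (95% interval −0.24 to 0.19, adjusted p = 0.821) and −0.10 in sh1 against B73 (−0.31 to 0.12, adjusted p = 0.413). The invertase genes incw3 and ivr2 had signals of 43.7 to 89.5 on all arrays, none above the 95th percentile of controls with no maize target.

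Fructokinase uses ATP to turn fructose, including that released by sucrose synthase, into fructose 6-phosphate. The gene frk1 had signals of 2549, 2542 and 2608 in ae wx, 3695, 3791 and 3945 in sh1, and 2193, 2284 and 1840.2 in B73. The lines stood apart in the order sh1, ae wx, B73 with no overlap. Means were 2566.5 ± 36.4 in ae wx, 3810.2 ± 126 in sh1 and 2106 ± 234 in B73 (SD, n = 3). The difference of sh1 from B73 was 0.86 ± 0.09 (SE, log2, adjusted p = 3.57e-05), and 11.1% of all tested probe sets had one at least as high. The difference of ae wx from B73 was 0.29 ± 0.09 (adjusted p = 0.0224). This second call ended without ae wx replicate 1 (adjusted p = 0.0602), 2 (0.0591) or 3 (0.0712), with values from 0.20 to 0.35 over all single arrays left out. Between ae wx and sh1 the difference was −0.57 ± 0.09 (adjusted p = 0.000911).

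The other fructokinase gene, frk2, had signals of 3817, 3336 and 3443 in ae wx, 4592, 3952 and 3959.9 in sh1, and 2149, 2371 and 2547 in B73. Again every ae wx and sh1 array was above every B73 array. Means were 3532 ± 252 in ae wx, 4168 ± 367 in sh1 and 2356 ± 199 in B73 (SD, n = 3). The differences from B73 were 0.58 ± 0.10 (SE, log2, adjusted p = 0.000728) in ae wx and 0.82 ± 0.10 (adjusted p = 7.42e-05) in sh1. Arrays of ae wx all lay below those of sh1, but the difference of −0.24 ± 0.10 did not pass the threshold (adjusted p = 0.0836). Whether it passed depended on the setting, with adjusted p from 0.00634 to 0.249 over the alternatives.

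The 2 fructokinase genes can be set against each other within an array, where no scaling between arrays enters. The size of such a log2 ratio has no meaning across probe sets, and only its change between lines does. The ratio of frk2 over frk1 was 0.58, 0.39 and 0.40 in ae wx, 0.31, 0.06 and 0.00546 in sh1, and −0.03, 0.05 and 0.47 in B73. B73 replicate 3 stood among the ae wx arrays, B73 replicate 2 among those of sh1, and B73 replicate 1 below all other arrays. An exact permutation test over all assignments of arrays to lines gave p = 0.204, and p = 0.0214 without B73 replicate 3. The ratio was 0.33 higher in ae wx than in sh1 with no overlap (two-sided exact permutation p = 0.1, the smallest that 3 against 3 allows), 0.29 higher in ae wx than in B73 (p = 0.3) and differed by −0.04 between sh1 and B73 (p = 0.9). Unequal change of the 2 genes among all 3 lines was thus not shown with all arrays.

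The gene phi1 encodes glucose phosphate isomerase, which links fructose 6-phosphate with glucose 6-phosphate. Signals were 2673, 3167 and 2739.5 in ae wx, 2798, 2739.8 and 2806 in sh1, and 4919, 3811 and 4186 in B73. All ae wx and sh1 arrays were below all B73 arrays, and ae wx spanned the sh1 values. Means were 2859.6 ± 268 in ae wx, 2781 ± 36.1 in sh1 and 4305 ± 564 in B73 (SD, n = 3). The difference from B73 was −0.58 ± 0.10 (SE, log2, adjusted p = 0.00116) in ae wx and −0.62 ± 0.10 (adjusted p = 0.000753) in sh1, and 12.7% and 11.8% of all probe sets had a difference at most as high. Between ae wx and sh1 it was 0.04 (95% interval −0.20 to 0.27, adjusted p = 0.824).

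**Figure D2:**
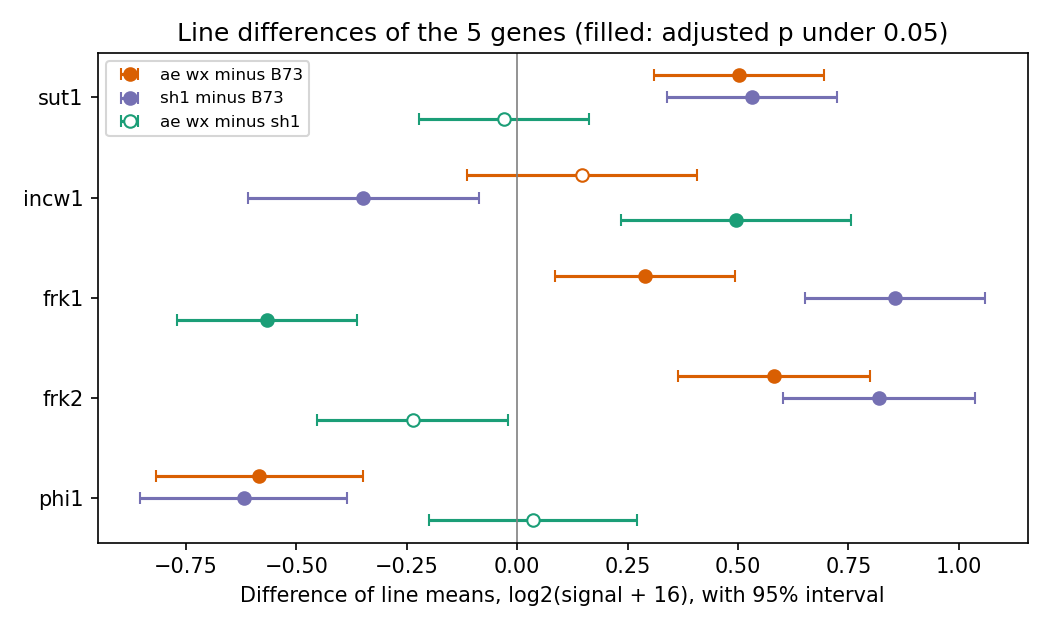
Differences of line means on the log2(signal + 16) scale for the 5 genes in ae wx minus B73, sh1 minus B73 and ae wx minus sh1, with 95% intervals from the fit; filled points have an adjusted p under 0.05. The genes sut1, frk1 and frk2 lie right of 0 and phi1 lies left of 0 in both comparisons with B73, while incw1 and frk1 are the genes called between ae wx and sh1.

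Because 3 of the genes rose and phi1 fell, their within-array ratios moved apart further than any single gene did. The log2 ratio of frk1 over phi1 was −0.31 to −0.07 in ae wx, 0.40 to 0.49 in sh1 and −1.18 to −0.73 in B73. That of frk2 over phi1 was 0.07 to 0.51 in ae wx, 0.49 to 0.71 in sh1 and −1.19 to −0.68 in B73. For sut1 over phi1 the ranges were −2.06 to −1.68 in ae wx, −1.86 to −1.75 in sh1 and −3.14 to −2.85 in B73. In all 3 ratios ae wx and sh1 lay above B73 on every array, by 0.87 to 1.17 in ae wx and 1.15 to 1.48 in sh1 on average. These ratios were formed after the values were seen and are given without a test. The ratio of incw1 over mn1 was −0.34 to −0.23 in ae wx, −0.85 to −0.59 in sh1 and −0.73 to −0.27 in B73, so that sh1 and B73 overlapped.

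**Figure D3:**
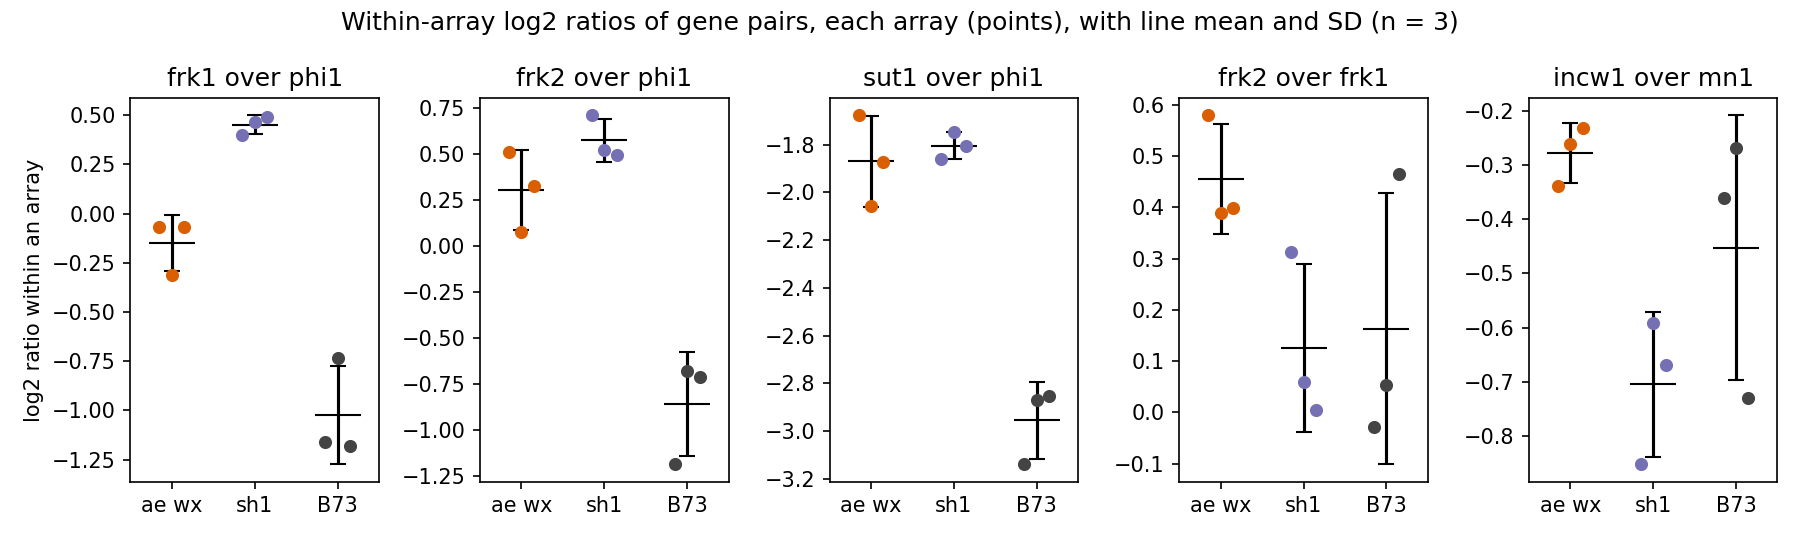
Within-array log2 ratios of frk1, frk2 and sut1 over phi1, of frk2 over frk1 and of incw1 over mn1 on each array (points) in ae wx, sh1 and B73, with the line mean and SD (n = 3); axes do not start at 0. In the ratios over phi1 the ae wx and sh1 points lie above all B73 points, while B73 overlaps another line in the ratios of frk2 over frk1 and incw1 over mn1.

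The directions above are relative to the overall signal of an array. Signals of the poly-A control transcripts were lower than in B73 by 0.55 (log2) in ae wx and 0.85 in sh1, and those of the hybridization controls by 0.18 and 0.47. The labels do not say how these controls were added. Scaling the arrays to the poly-A controls, an alternative chosen after the data were seen, moved the median difference of all probe sets to 0.56 in ae wx and 0.85 in sh1 against B73, and 91.3% and 95.2% of calls were then higher, against 54.4% and 54.5% with the values as deposited. With that scaling, phi1 stood at −0.03 in ae wx (adjusted p = 0.824) and 0.23 in sh1 (adjusted p = 0.103), and incw1 at 0.41 in sh1 (adjusted p = 0.0104). With hybridization controls, the medians were 0.21 and 0.48, with 72.9% and 88.4% of calls higher. There phi1 was still called lower in ae wx (−0.40, adjusted p = 0.0212) but not in sh1 (−0.16, adjusted p = 0.296), and incw1 stood at 0.07 in sh1 (adjusted p = 0.594). Measured from the median of all probe sets, with the deposited values, phi1 was at −0.62 in ae wx and −0.66 in sh1, and incw1 was at −0.38 in sh1. Each scaling moves all probe sets of an array alike, so distances from that median stay nearly the same by construction and test nothing further. The genes sut1, frk1 and frk2 were higher than in B73, with calls, under each of these scalings. Per unit of poly-A control signal, phi1 was not called lower in either line. There incw1 was called higher than in B73, in sh1 (0.41, adjusted p = 0.0104) and in ae wx (0.64, adjusted p = 0.00095). With hybridization controls, incw1 was called higher in ae wx (0.31, adjusted p = 0.0356).

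**Figure D4:**
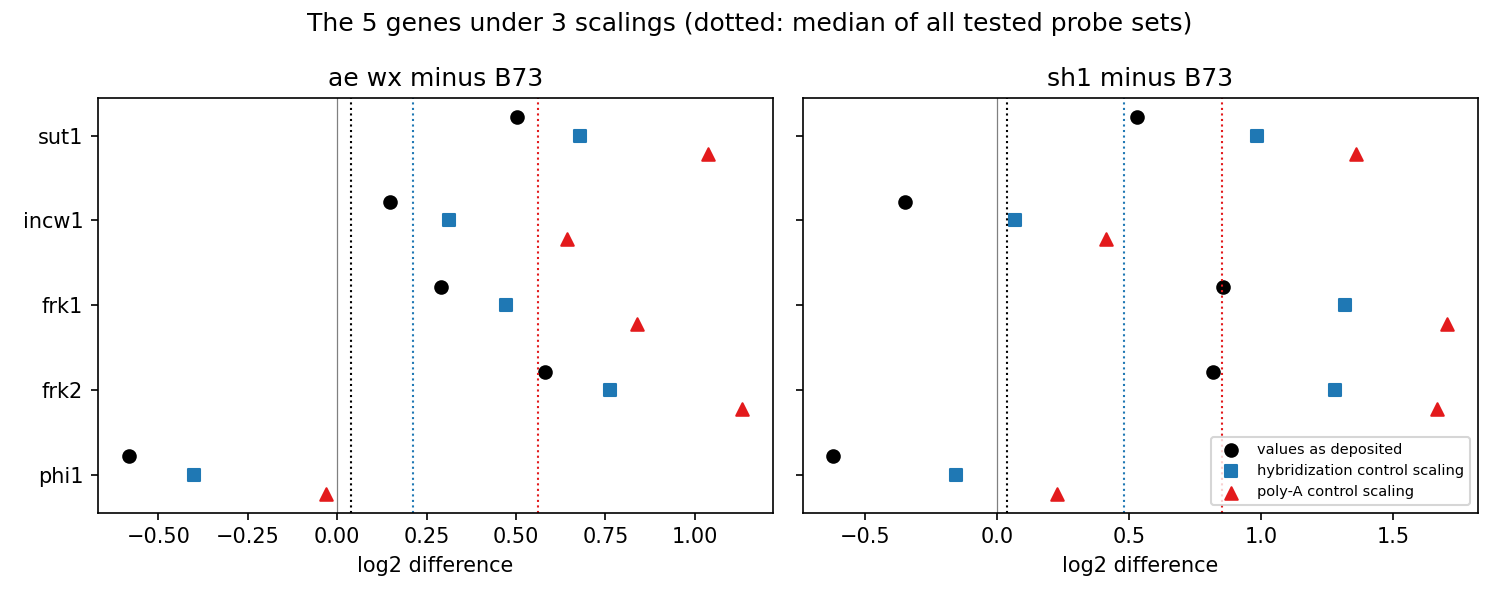
Differences of the 5 genes from B73 (log2) in ae wx and sh1 with the values as deposited and with arrays scaled to hybridization or poly-A controls; dotted lines give the median of all tested probe sets under each scaling. The points shift together with the medians by construction. In sh1, phi1 and incw1 lie right of 0 with the poly-A controls, and incw1 also with the hybridization controls.

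Of 57 names listed for sucrose uptake, cleavage, synthesis and hexose phosphate, 15 genes were on the array by name. Of these, 11 passed the filter on dim probe sets, the 5 members among them. In ae wx against B73, 5 of the 11 were higher and 2 lower (29% and 24.3% of all tested probe sets), with a median of 0.25 beside 0.04 for all. In sh1 against B73, 5 were higher and 4 lower (30.4% and 25.4% of all), with a median of 0.16 beside 0.04. Between ae wx and sh1, 2 were higher in ae wx, 3 were lower (17.8% and 18.8% of all) and 6 did not pass the test (median −0.03 beside 0.00358). The 6 list genes that are not members had medians of 0.11 in ae wx and 0.03 in sh1 against B73. Of those 6, 2 were higher and 1 lower in ae wx, and 2 higher and 2 lower in sh1. These counts of a short list are not set apart from the rest of the array. The sh1 gene is on the list and is not a member, so the counts take in its low signal in the line named for it. It is among the genes called lower in sh1 against B73 and higher in ae wx against sh1. Leaving out single arrays gave 2 to 6 called higher in ae wx against B73, with 3 without B73 replicate 2, 2 without ae wx replicate 1 and 3 without ae wx replicate 2 or 3.

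Among transport genes, sut1 was joined by mst1, by name a monosaccharide transporter gene, which would carry the hexoses that invertase releases. The probe set with the higher mean log2 signal read 219, 195.5 and 191 in ae wx, 263, 312 and 299 in sh1, and 159, 144.5 and 173 in B73. Its difference from B73 was 0.32 ± 0.10 (SE, log2 scale, adjusted p = 0.0197) in ae wx and 0.81 ± 0.10 (adjusted p = 7.93e-05) in sh1, and ae wx was below sh1 by −0.49 (adjusted p = 0.00304). Its other probe set kept this order and spread the lines further, with 128 to 139 in ae wx, 404 to 607 in sh1 and 45.1 to 51.8 in B73, where it was not above the 95th percentile of controls with no maize target. In sh1 it was the brighter of the pair. This other probe set has the same suffix as that of sut1, so close relatives could add to its signal. Unlike mst1, sut1 did not separate ae wx from sh1.

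Among sucrose synthase genes, sh1 itself had low signal in its namesake line (−3.24 ± 0.06 in sh1 against B73, SE, log2, adjusted p = 3.3e-10, and −0.13, adjusted p = 0.119, in ae wx against B73, by its brightest probe set). Of the other sh1 probe sets, 1 differed by −5.17 in sh1 against B73, and the dimmest averaged 53.8 in sh1, not above the 95th percentile of controls with no maize target, against 2140.7 in B73. The dimmest was lower in ae wx too, by −0.67 (adjusted p = 0.00156), while the one at −5.17 in sh1 differed by −0.18 in ae wx (adjusted p = 0.0791). All probe sets of sh1 thus had the same direction in ae wx against B73, but only the dimmest was called. The gene sus1 encodes another sucrose synthase. Its differences from B73 were 0.41 in ae wx (adjusted p = 0.0714) and 0.45 ± 0.17 in sh1 (adjusted p = 0.0468). The sh1 arrays were uneven, at 6642, 3999 and 4391, and limma's F test did not call sus1 among the 3 lines (adjusted p = 0.0678). The gene sus2 was lower in both, by −3.76 ± 0.21 in ae wx and −2.60 ± 0.21 in sh1 (adjusted p = 3.43e-07 and 4.47e-06). By its brightest probe set, the sh1 gene averaged 1831.5 in sh1 and 15986 in ae wx, against 17471 in B73. The gene sus2 averaged 430 in sh1 and 181 in ae wx, against 2699 in B73. Whether the higher frk1 and frk2 signals relate to these levels was not tested.

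On the side of sucrose synthesis, spp1, a sucrose phosphatase gene, was 0.25 ± 0.09 higher in ae wx than in B73 (adjusted p = 0.0404) and differed by 0.16 in sh1 (adjusted p = 0.158). It was not called among the 3 lines by limma's F test (adjusted p = 0.0773). The sucrose phosphatase gene spp2 and the sucrose phosphate synthase gene sps1 were too dim to be tested. Signals of spp2 were 63.9, 65.3 and 51.6 in ae wx, 56.3, 53.2 and 56.6 in sh1, and 178, 179.8 and 72.9 in B73. Only B73 replicates 1 and 2 were above the 95th percentile of controls with no maize target, and B73 replicate 3 stood with ae wx and sh1.

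**Figure D5:**
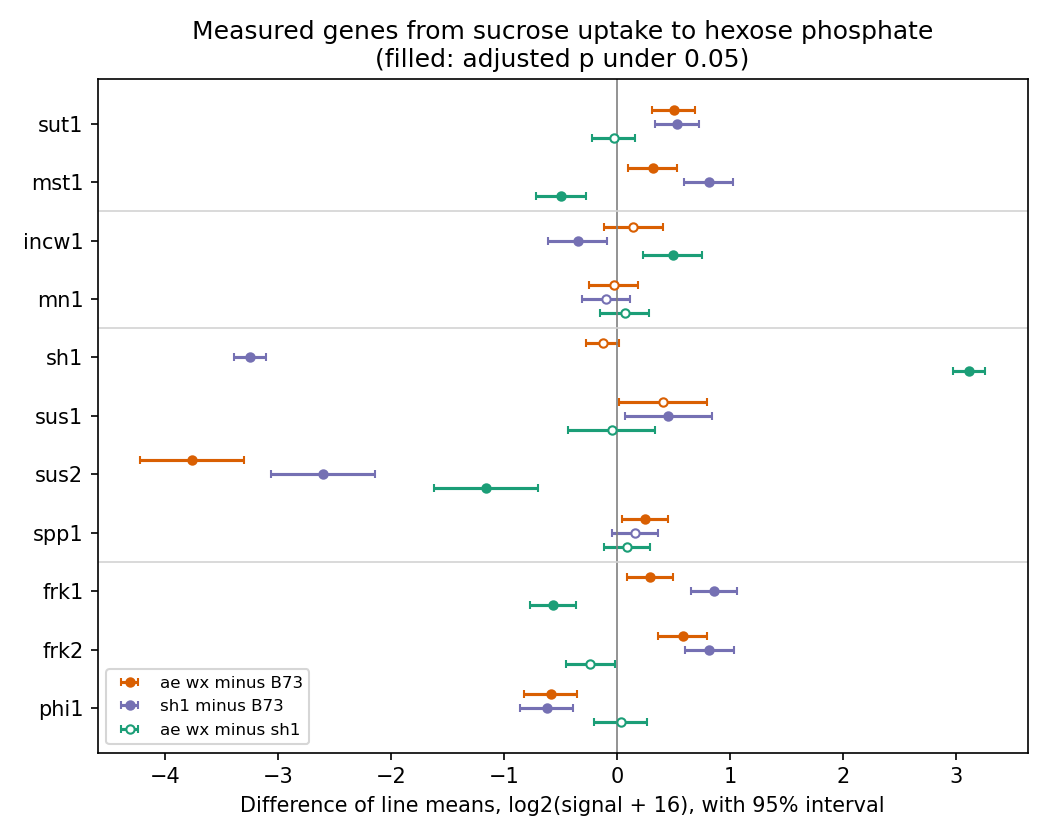
Differences of line means (log2(signal + 16), 95% intervals) for the 11 measured genes, grouped from top to bottom as transport, invertase, sucrose cleavage and synthesis, and hexose phosphorylation and interconversion; filled points have an adjusted p under 0.05. The gene sus2 lies farthest from 0 in ae wx minus B73 and sh1 in both comparisons with the sh1 line. In both comparisons with B73, mst1, sut1, frk1 and frk2 lie right of 0 with filled points. So do sus1 and spp1, with sus1 not called in ae wx and spp1 not called in sh1.

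The named genes whose signals followed each of the 5 most closely over the 9 arrays were sought among 735 genes outside the sucrose list. The measure was Pearson's r on the log2 scale, which mostly reflects the 3 line means. The closest to sut1 were aprl3 (r = 0.991), the pyruvate decarboxylase gene PDC, also called pdc3 (0.979), and Rad51A2, of the recombinase family (0.977). PDC averaged 3870.2 in ae wx, 3944 in sh1 and 1669.5 in B73. The closest to incw1 were FL1, the floury1 gene (0.949), IDI2 (0.946) and the glutamine synthetase gene Gln1-4 (0.932), the last at a mean of 332 in ae wx, 151 in sh1 and 332 in B73. For frk1 they were the proteinase inhibitor gene wip1 (0.981), the tubulin gene tub6 (0.98) and the cellulose synthase gene CesA-2 (0.975). CesA-2 averaged 357 in ae wx, 544 in sh1 and 301 in B73. For frk2 they were pdh1 (0.975), MADS11, also called silky1 (0.97), and the alcohol dehydrogenase gene adh2 (0.969), the last at 817 in ae wx, 965 in sh1 and 294 in B73. For phi1 they were S6K, a ribosomal protein kinase gene (0.976), the transglutaminase gene tgase (0.972) and nfc102, of nucleosome assembly (0.95). S6K averaged 558 in ae wx, 565 in sh1 and 922 in B73.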

How the data were processed

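The deposited table gives 1 linear intensity per probe set and array. GCOS 1.4 is named in the submitters' processing notes, and how probes were summarised and arrays scaled is not stated in the labels or headers. Of 17734 probe sets, 113 are array controls. The filter on dim probe sets asked for 20% or more of an array's 2% trimmed mean on 3 or more arrays (12414 passed, 5207 did not). Values were used as deposited, since trimmed means differed by 9.72% at most. On log2(signal + 16), limma 3.58.1 (R 4.3.3) fitted 1 mean per line to all 9 arrays with an intensity trend. Two-sided p-values were adjusted by Benjamini-Hochberg over the 12414 probe sets. The number of arrays limits the precision. Plots were made in Python 3.11.15 (matplotlib 3.10.9).

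Names came from the platform annotation and, for 1377 probe sets, by gene identifier, RefSeq (assembly Zm-B73-REFERENCE-NAM-5.0). The table used holds no descriptions, so the list rested on names alone. No sequences or coordinates are given. Genes named were the members, all measured list genes, the loci sh1 and wx1 and, for each member, the 3 named genes most alike. A gene with several probe sets is given by that of highest mean log2 signal, called its brightest. The members and lists were chosen with earlier results of these data known. P-values measure the spread between samples the labels call biological. The fit pools that spread over the 3 lines for each probe set, although B73 replicates varied more (median SD 0.18, against 0.07 in ae wx and 0.08 in sh1). Calls depend on this pooling: ae wx against sh1 had 4544 calls, and 6731 in a fit of only the lines compared. Deviations of same-numbered arrays from their line means correlated from −0.231 to 0.136, and nothing else pairs the numbers. Alternatives covered scaling, pseudocount, filter, spread, single arrays, the near-alike arrays sh1 replicates 2 and 3 (r = 0.998) and the replicate block.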

Additional observations from a re-analysis of the deposited data

Results flagged for a closer look

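The gene incw1 was set apart because the direct difference of ae wx from sh1, 0.495 (log2, adjusted p = 0.00802), was called by limma. That call chose the gene, so it is no separate evidence for it. Estimates against B73 had opposite signs, 0.15 in ae wx (adjusted p = 0.315) and −0.35 in sh1 (adjusted p = 0.028). The ae wx estimate was not called, and its interval of −0.11 to 0.41 spans both signs, so opposite directions were not shown. The gene passed the filter on dim probe sets through the ae wx and B73 arrays, since none of the sh1 arrays reached the filter's floor. The ae wx arrays read 199.5, 169 and 169 and the sh1 arrays 109, 132 and 127, where sh1 was not above the brightest control with no maize target. The direct difference of ae wx from sh1 was 0.23 (adjusted p = 0.166) with poly-A control scaling and 0.24 (adjusted p = 0.0957) with hybridization control scaling.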

How the results depend on the processing

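Single arrays left out, the differences ran from 0.20 to 0.35 for frk1 in ae wx against B73, −0.45 to −0.27 for incw1 in sh1 against B73, −0.29 to −0.17 for frk2, −0.079 to 0.0018 for sut1 and −0.039 to 0.082 for phi1 in ae wx against sh1. List genes called higher in ae wx against B73 numbered 2 to 6, the exact p of the frk2 over frk1 ratio among lines ran from 0.0214 to 0.354, and its difference in sh1 against B73 from −0.13 to 0.11 (0.00908 with sh1 replicates 2 and 3 averaged). In ae wx against sh1, sut1 stood at 0.026 with quantile normalization and 0.017 with median centring, and frk2 was called with array weights (−0.19), without B73 replicate 1 (−0.24, adjusted p = 0.0434) and in the fit of only the lines compared (−0.24), where frk1 in ae wx against B73 was not (0.29, adjusted p = 0.0583). List genes called higher there numbered 4 with no filter and 1 with the stricter filter, at 50% of the trimmed mean, which also removed incw1. Array weights called 3886 probe sets higher and 4133 lower in ae wx against sh1, against 2213 and 2331.

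With poly-A scaling, ae wx against B73 gave 0.64 for incw1, −0.032 for phi1, list calls of 9 higher and 1 lower, and 8624 probe sets higher and 826 lower, against 3604 and 3020. For sh1 against B73 it gave 0.41 for incw1, 0.23 for phi1, list calls of 8 higher and 2 lower, and 10471 probe sets higher and 533 lower, against 3780 and 3159. For ae wx against sh1 it gave −0.32 for sut1, 0.23 for incw1, −0.53 for frk2, −0.26 for phi1, list calls of 1 higher and 5 lower, and 844 probe sets higher and 4809 lower. The F test of phi1 had adjusted p = 0.125. With hybridization control scaling, ae wx against B73 gave 0.31 for incw1 and 1810 probe sets lower. For sh1 against B73 it gave 0.069 for incw1, −0.16 for phi1, 2 list genes lower, and 7989 probe sets higher and 1049 lower. For ae wx against sh1 it gave 0.24 for incw1, −0.52 for frk2, −0.25 for phi1, 1 list gene higher, and 951 probe sets higher and 5052 lower. The F test of incw1 had adjusted p = 0.0524. Both scalings shift all probe sets of an array together, and whether the controls were added in equal amounts was not tested.

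With the replicate number as a block, no call of the 5 genes changed (frk1 in ae wx against B73, adjusted p = 0.0464, and incw1 in sh1 against B73, 0.0429), and 4 list genes were called higher in ae wx against B73. Under every alternative run, sut1 and frk2 against B73 in both lines, frk1 in sh1 against B73 and frk1 in ae wx against sh1 kept their direction and call. Signal near that of controls with no maize target limits what can be said of incw1.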
